A study of Mus musculus with 6 samples.

Results

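Splicing factor genes were followed in LSK cells, the lineage-negative, Sca-1-positive and c-Kit-positive cells of mouse bone marrow that include the blood stem cells and early progenitors. The genes were taken by symbol: the SR protein genes (Srsf), the hnRNP genes (Hnrnp), the SF3a and SF3b genes, the genes of the Sm proteins and other small nuclear ribonucleoprotein (snRNP) components (Snrp), the pre-mRNA processing factor genes (Prpf), and U2af1, U2af2, Zrsr1 and Luc7l2. The rule found 66 genes among the 23420 of the count tables, and 65 of them were among the 12713 genes that had 10 or more counts in 3 or more libraries and were tested. Bulk RNA was sequenced from 3 bcat(ex3)osb mice, in which β-catenin signalling is always on in osteoblasts, and from 3 wild-type (WT) littermates, with 1 library for each mouse. The bcat(ex3)osb mice are called mutant mice here. Osteoblasts are the bone-forming cells around the marrow, so the signalling named by the genotype is that of the niche and the RNA that of the blood progenitors. Which promoter directs it to osteoblasts, which strain was used and how old the mice were is not given in the sources used here.

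Splicing removes introns from transcripts by means of the spliceosome, which is built anew on each intron. The U1 snRNP recognises the start of the intron, and SF1, the U2AF pair and the U2 snRNP with its SF3a and SF3b parts recognise the branch point and the end of the intron. The tri-snRNP, which carries several Prpf proteins, then joins. SR proteins mostly favour the use of an exon and hnRNP proteins often oppose it. In human myelodysplastic syndromes and related myeloid neoplasms, SF3B1, SRSF2, U2AF1, ZRSR2, PRPF8 and LUC7L2 are recurrently mutated or lost, and the series concerns myeloid malignancies.

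No splicing factor gene passed the test between the genotypes, and the estimated differences were mostly small beside the spread between mice. By edgeR's quasi-likelihood test 0 of the 65 genes were higher and 0 lower at a Benjamini-Hochberg adjusted p under 0.05, as for all 12713 genes tested, of which 0% were called in either direction. Among the 65 genes DESeq2 and limma-voom also gave 0 and 0; over all genes tested DESeq2 gave 103 higher and 69 lower and limma-voom 0 and 0. At an unadjusted p under 0.05, 0 of the 65 genes were higher and 1, Hnrnpc, was lower, where 3.42% of all genes tested were higher and 3.13% lower, together 6.55%. Each mutant mouse exceeded each WT mouse for 4 genes and was below each for 6, which is 15.4% of the 65 genes and close to the 14.5% of all genes tested (6.87% higher and 7.67% lower). Without WT mouse 2, when 2 WT mice remain, the counts were 13 and 11 of the 65 genes, beside 16.7% higher and 17.6% lower of all genes tested. The log2 fold change, mutant over WT, was positive for 36 of the 65 genes, where 50.2% of all genes tested were positive. Its median was 0.014 over the 65 genes and 0.0018 over all genes tested, and its median size without sign was 0.20 over the 65 genes and 0.24 over all. The estimate was within 1.5-fold for 61 of the 65 genes, and the 95% interval stayed within 2-fold in both directions for 51 of them. The median half-width of that interval was 0.53 log2 units. The interval holds for a single gene without adjustment, so the adjusted test needs larger differences than this with 3 mice in a group.

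**Figure D1:**
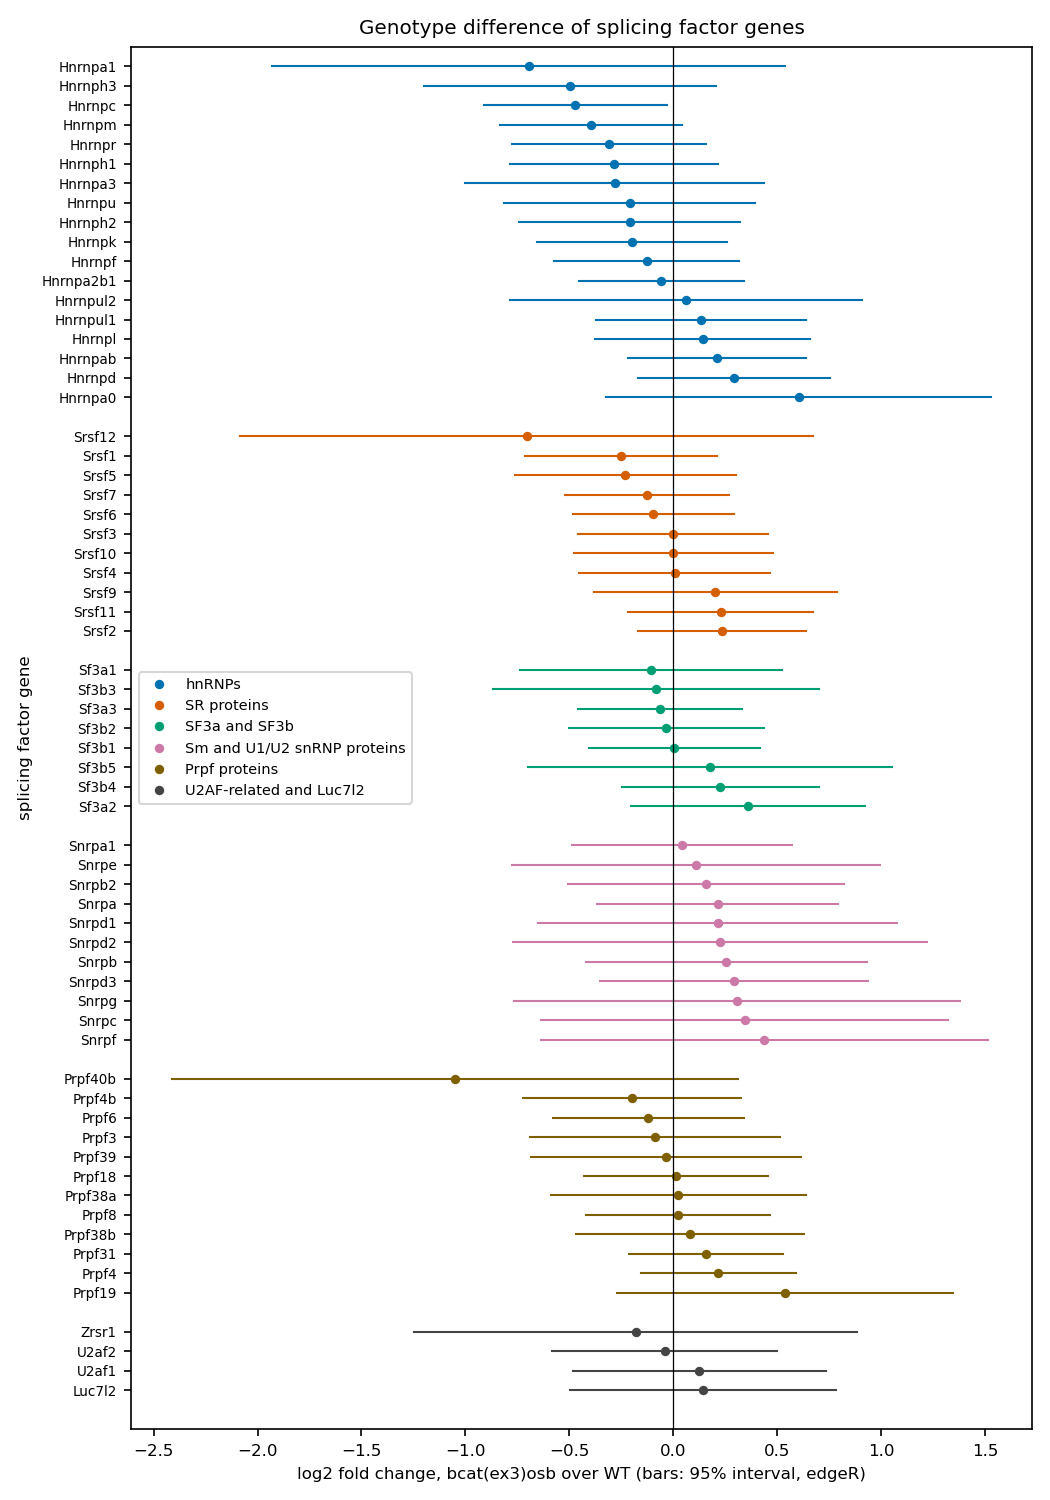
Log2 fold change (mutant over WT, x axis) with its 95% interval for the tested splicing factor genes that are reported (y axis), grouped by role. The interval of Hnrnpc, from -0.91 to -0.028, is the one that leaves out 0.

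Total counts were between 15431235 and 19956774 in the 6 libraries. Counts of Xist and Y-linked genes were those of males in mutant mice 1 and 2 and of females in mutant mouse 3 and the 3 WT mice. On the first principal component over all genes tested (50.3% of the variance) mutant mouse 2 was far from the other libraries. All 10 listed LSK marker genes were detected, with a summed level of 3136 to 3883 CPM (counts scaled by TMM library size) in mutant mice, against 3146 to 4777 CPM in WT mice. Of these, Ly6a, which encodes the sort marker Sca-1, had 65.9 to 81.5 CPM in mutant mice, against 148 to 162 CPM in WT mice, and Procr was also lower in every mutant mouse, by a narrow gap. The 5 measured neutrophil and monocyte markers, chiefly Mpo and Elane, summed to 5345 to 7978 CPM in mutant mice, against 1206 to 2802 CPM in WT mice. The 5 B cell markers summed to 66.5 to 315 CPM in mutant mice, against 360 to 589 CPM in WT mice, and the 4 measured macrophage markers to 4.09 to 24.9 CPM in mutant mice, against 31.8 to 54.1 CPM in WT mice. T cell markers reached 20.1 CPM in mutant mice, against 24.3 CPM in WT mice, erythroid markers 2.90 and 3.30 CPM, with Hba-a1 at 0 in all libraries. Of the 5 osteoblast markers Bglap, Col1a1 and Sp7 were under 1 CPM in all libraries, Alpl had 0.387 to 4.79 CPM in mutant mice, against 5.92 to 21.8 CPM in WT mice, and Runx2 had 88.3 to 147 CPM in mutant mice, against 74.8 to 108 CPM in WT mice. The part of these differences in any splicing factor value was not tested, and in bulk RNA a change in the mix of cells and a change in RNA per cell cannot be told apart.

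Per gene length, the most abundant transcripts by the mean over all 6 libraries were those of Hnrnpk, Snrpb, Hnrnpa2b1, Hnrnpab and Srsf2. Hnrnpk, whose protein binds C-rich RNA, averaged 589 ± 116 FPKM (fragments scaled by gene length and library total) in mutant mice, against 712 ± 118 FPKM in WT mice (SD, n = 3 each, as for the levels that follow). Of the longest coding transcript of Hnrnpk, 46.4% is shared with 1 pseudogene at 98% identity or more, so its level is uncertain. Snrpb, which encodes the SmB core protein, averaged 625 ± 166 FPKM in mutant mice, against 557 ± 133 FPKM in WT mice. Hnrnpa2b1, whose protein binds nascent and exported RNA, averaged 426 ± 49.9 FPKM in mutant mice, against 466 ± 34.8 FPKM in WT mice. Hnrnpab averaged 423 ± 7.99 FPKM in mutant mice, against 386 ± 43.1 FPKM in WT mice, and Srsf2 averaged 425 ± 19.8 FPKM in mutant mice, against 381 ± 33.7 FPKM in WT mice. In mutant mice Hnrnpk and Snrpb differ by less than their SD, and so do Hnrnpa2b1, Hnrnpab and Srsf2. In WT mice Hnrnpk exceeds Snrpb by more than either SD, and Hnrnpu, at 405 FPKM, lies above Hnrnpab and Srsf2. At the other end, Srsf12 averaged 0.210 ± 0.0265 FPKM in mutant mice, against 0.363 ± 0.0551 FPKM in WT mice. Hnrnpa1 averaged 0.677 ± 0.185 FPKM in mutant mice, against 1.153 ± 0.318 FPKM in WT mice, and Zrsr1 averaged 0.703 ± 0.169 FPKM in mutant mice, against 0.847 ± 0.208 FPKM in WT mice. Snrpn, an imprinted gene for a neuronal SmB relative, had 0 counts in all 6 libraries and was the member left out of the test. A count of 0 allows up to 3 counts, which is 0.150 to 0.194 CPM at these depths, and the exons of Snrpn overlap those of Snurf on the same strand. Srsf12, the tested gene nearest the limit on low counts, had 0.646, 0.581 and 0.665 CPM in mutant mice 1, 2 and 3, against 1.16, 0.911 and 1.02 CPM in WT mice 1, 2 and 3. Its groups do not overlap, but with so few counts the interval of its log2 fold change ran from -2.08 to 0.67. Hnrnpa1 is among the most abundant hnRNPs in most cells. Here 50.3% of its longest coding transcript is shared, at 98% identity or more, with other genes, among them 5 pseudogenes, so its low value is uncertain, since how reads that map to several places were counted is not given in the sources used here.

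Genes of the hnRNP family were the role group with the lowest median. Of 18 tested, the log2 fold change was negative for 12 and positive for 6; its median was -0.20, where all genes tested had 0.0018. It was -0.084 without mutant mouse 2 and -0.11 without WT mouse 3. In 4 of them, Hnrnpc, Hnrnpm, Hnrnpr and Hnrnpa1, all 3 mutant mice lay below all 3 WT mice, which is 22.2% of the 18 beside 7.67% of all genes tested in that direction, and in 0 did they lie above. Such separation is not particular to hnRNP genes, but 4 of the 6 genes that lay lower among the 65 were hnRNP genes. In that direction 1 of the 13 Prpf genes, 1 of the 11 SR genes and 0 genes of the other role groups were apart. Counting both directions, the share was 30.8% of the 13 Prpf genes, 18.2% of the 11 SR genes and 0% in the other role groups. It was 15.4% of the 65 genes and 14.5% of all genes tested. None of the 18 had an edgeR adjusted p under 0.05; the smallest was 0.725, that of Hnrnpc, the unadjusted count being 0 higher and 1 lower.

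Hnrnpc encodes the core hnRNP protein that binds U-rich stretches and packages nascent transcripts. The gene lies on the minus strand of chromosome 14, from 52073377 to 52104039 on GRCm38.p6. It had 381, 399 and 321 CPM in mutant mice 1, 2 and 3, against 437, 579 and 510 CPM in WT mice 1, 2 and 3. Every mutant mouse was below every WT mouse. The log2 fold change was -0.47 ± 0.19 (SE), with a 95% interval from -0.91 to -0.028 and an edgeR adjusted p of 0.725. Its unadjusted p was over 0.05 when mutant mouse 1, WT mouse 2 or WT mouse 3 was left out, and with sex as a covariate. Hnrnpm, an RNA-binding regulator of alternative exons, had 487, 355 and 460 CPM in mutant mice, against 538, 589 and 587 CPM in WT mice. Its groups do not overlap either, mutant mouse 2 being the lowest of the 6, and the log2 fold change was -0.40 ± 0.19 (SE) with an edgeR adjusted p of 0.785. The exons of Hnrnpm overlap those of March2 on the same strand over 14.7% of their length. Hnrnpr, a relative of the RNA-editing cofactor Syncrip, had 197, 132 and 181 CPM in mutant mice, against 209, 200 and 223 CPM in WT mice, which lay apart by a small gap.

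Hnrnph3, of the G-run-binding hnRNP H family, had 19.3, 10.2 and 17.3 CPM in mutant mice, against 17.9, 25.2 and 23.0 CPM in WT mice. Its groups overlap through mutant mouse 1 and WT mouse 1. Hnrnpk had 1276, 1002 and 1293 CPM in mutant mice, against 1518, 1154 and 1426 CPM in WT mice, with a log2 fold change of -0.20 ± 0.20 (SE). Hnrnpu, which encodes a nuclear scaffold RNA-binding protein, had 1508, 823 and 1413 CPM in mutant mice, against 1488, 1217 and 1626 CPM in WT mice. Mouse 2 was the lowest of its group in both genotypes for Hnrnpk and Hnrnpu. Hnrnpa2b1 had 1767, 1694 and 1887 CPM in mutant mice, against 1650, 1964 and 1952 CPM in WT mice, and its groups overlap. On the positive side, Hnrnpa0 had 65.3, 127 and 62.8 CPM in mutant mice, against 34.2, 85.8 and 48.1 CPM in WT mice. Its log2 fold change of 0.60 ± 0.40 (SE) was the highest of the 65 genes, and its groups overlap through WT mouse 2. Hnrnpab had 1094, 1209 and 1028 CPM in mutant mice, against 811, 1052 and 1014 CPM in WT mice; WT mouse 2 exceeded mutant mouse 3.

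The hnRNP genes together took 0.849, 0.684 and 0.852% of all counts in mutant mice 1, 2 and 3, against 0.876, 0.856 and 0.945% in WT mice 1, 2 and 3. The mutant shares were below all WT shares, with a narrow gap between mutant mouse 3 and WT mouse 2 and with mutant mouse 2 well below the others. Over all 66 splicing factor genes the share was 1.87, 1.69 and 1.86% in mutant mice, against 1.84, 1.92 and 1.98% in WT mice. The counting error of these shares was small (95% Wilson half-width at most 0.00685 percentage points), far below the spread between mice. The ranges of the 66-gene shares overlap, since mutant mice 1 and 3 lay above WT mouse 1.

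SR proteins bind exonic enhancers and recruit the U1 snRNP and U2AF. Of 11 tested Srsf genes, the log2 fold change was positive for 5 and negative for 6, its median being -0.0017. Srsf2, the SR protein gene mutated in human myeloid neoplasms, had 851, 854 and 789 CPM in mutant mice 1, 2 and 3, against 617, 763 and 741 CPM in WT mice 1, 2 and 3. Every mutant value exceeded every WT value, but the gap between mutant mouse 3 and WT mouse 2 was smaller than the spread within either group. The log2 fold change was 0.23 ± 0.17 (SE), with an interval from -0.17 to 0.64 and an edgeR adjusted p of 0.876. The exons of Srsf2 overlap Mettl23 and Mfsd11 on the other strand over 25.3% of their length, and the strand setting of the counting is not given in the sources used here. Srsf1, the prototype SR protein gene, had 420, 299 and 378 CPM in mutant mice, against 405, 410 and 492 CPM in WT mice. Srsf11 had 331, 340 and 316 CPM in mutant mice, against 245, 341 and 257 CPM in WT mice. Both overlap between the groups, Srsf1 through mutant mouse 1 and Srsf11 through WT mouse 2.

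SF3a and SF3b are the U2 snRNP parts that hold the branch point. Of the 8 genes, the log2 fold change was positive for 4 and negative for 4, its median was -0.015, and 0 had groups that do not overlap. Sf3b1, the scaffold of SF3b and the splicing gene most often mutated in human myelodysplastic syndromes with ring sideroblasts, had 564, 449 and 557 CPM in mutant mice, against 556, 507 and 501 CPM in WT mice. Its log2 fold change was 0.0051 ± 0.18 (SE), with an interval from -0.41 to 0.42, and mutant mouse 2 was the lowest of the 6. Sf3a2, an SF3a subunit that contacts the branch region, had 100, 136 and 87.6 CPM in mutant mice, against 64.2, 95.02 and 93.0 CPM in WT mice. Sf3b4, an SF3b subunit with RNA recognition motifs, had 150, 168 and 120 CPM in mutant mice, against 107, 143 and 124 CPM in WT mice; 66.6% of its longest coding transcript is shared with other genes at 98% identity or more. Sf3a1 had 191, 122 and 179 CPM in mutant mice, against 197, 121 and 211 CPM in WT mice.

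Sf3b5, the smallest SF3b subunit, and Sf3b3, a large scaffold subunit, varied in opposite ways between the mice. Sf3b5 had 128, 233 and 116 CPM in mutant mice, against 91.0, 212 and 118 CPM in WT mice. Sf3b3 had 539, 319 and 573 CPM in mutant mice, against 653, 295 and 567 CPM in WT mice. Mouse 2 of each group was the highest for Sf3b5 and the lowest for Sf3b3. The FPKM ratio of Sf3b5 to Sf3b1 was 1.92, 4.37 and 1.75 in mutant mice, against 1.38, 3.53 and 1.99 in WT mice. The excess of that ratio in mouse 2 of each group was larger than the difference between the group means.

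U2AF recognises the end of the intron. U2af1, its small subunit, which contacts the terminal AG dinucleotide, had 171, 219 and 136 CPM in mutant mice, against 125, 209 and 148 CPM in WT mice, with a log2 fold change of 0.12 ± 0.26 (SE) and an interval from -0.48 to 0.73. U2af2, the large subunit that binds the polypyrimidine tract, had 71.6, 101 and 80.0 CPM in mutant mice, against 96.1, 64.3 and 99.0 CPM in WT mice, with a log2 fold change of -0.041 ± 0.24 (SE). The FPKM ratio of U2af1 to U2af2 was 5.38, 4.94 and 3.83 in mutant mice, against 2.94, 7.36 and 3.37 in WT mice. WT mouse 2 held the highest ratio and the other two WT mice the lowest, so the genotypes overlap. A shared stretch covers 68.8% of the longest coding transcript of U2af1, with 1 pseudogene, so its level is uncertain. Luc7l2, a U1 snRNP-associated protein gene on the human chromosome arm often lost in myeloid neoplasms, had 41.7, 36.1 and 39.1 CPM in mutant mice, against 24.6, 49.3 and 32.05 CPM in WT mice. The mutant mice lay inside the range of the WT mice. Zrsr1, an imprinted retrogene relative of Zrsr2, had 2.53, 4.45 and 2.88 CPM in mutant mice, against 2.91, 4.88 and 3.40 CPM in WT mice. Zrsr2 itself, tested among the other splicing genes, had 38.9, 47.4 and 35.5 CPM in mutant mice, against 29.8, 52.2 and 31.5 CPM in WT mice. The log2 fold change of Zrsr2 was 0.10 ± 0.27 (SE), and its groups overlap.

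Sm proteins form the ring around the U1, U2, U4 and U5 small nuclear RNAs, and the snRNP-specific proteins such as Snrpa, Snrpc and Snrpa1 join U1 or U2. The log2 fold change was positive for all 11 tested genes of this group; its median was 0.23, its values running from 0.042 to 0.44. In 0 of the 11 were the groups apart, and the smallest edgeR adjusted p was 0.903. The values followed the mouse: mutant mouse 2 and WT mouse 2 were the highest pair, and WT mouse 1 the lowest of the 6, in 11 of 11 genes. The median deviation of the 11 genes from the WT mean, in log2 CPM, was 0.016, 0.80 and -0.11 in mutant mice 1, 2 and 3, against -0.54, 0.67 and -0.11 in WT mice 1, 2 and 3. Without mutant mouse 2 the median log2 fold change was -0.067, and with sex as a covariate -0.12. With the trend with gene length removed in each library, the median was 0.048.

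Snrpe, which encodes the SmE ring protein, had 157, 285 and 135 CPM in mutant mice, against 115, 267 and 153 CPM in WT mice. Snrpg, the SmG gene, had 95.02, 192 and 71.1 CPM in mutant mice, against 57.2, 156 and 75.7 CPM in WT mice. Snrpc, whose protein stabilises the pairing of U1 with the start of the intron, had 49.5, 96.3 and 42.5 CPM in mutant mice, against 29.3, 76.7 and 42.5 CPM in WT mice. Of its longest coding transcript 42.3% is shared with 1 pseudogene at 98% identity or more. In Snrpe, Snrpg and Snrpc the difference of mouse 2 from the other mice of its group exceeded the difference between the group means. Snrpb had 574, 1013 and 601 CPM in mutant mice, against 463, 788 and 582 CPM in WT mice. Snrpd3, the SmD3 gene, had 195, 332 and 183 CPM in mutant mice, against 155, 231 and 194 CPM in WT mice. Snrpf, the SmF gene, had 23.1, 47.6 and 21.2 CPM in mutant mice, against 12.5, 37.1 and 18.4 CPM in WT mice, and 85.4% of its exon length overlaps genes on the other strand. Snrpa, whose protein binds a loop of the U1 RNA, had 158, 249 and 147 CPM in mutant mice, against 132, 180 and 165 CPM in WT mice. All of these overlap between the genotypes, WT mouse 2 being above mutant mice 1 and 3.

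Since SmB, SmD1, SmD2, SmD3, SmE, SmF and SmG sit in the ring in equal number, their transcripts were set beside each other per length. The 7 genes summed to 1845, 3071 and 1742 FPKM in mutant mice, against 1432, 2784 and 1810 FPKM in WT mice. As a mean over the 6 libraries, Snrpb held 28.5 ± 2.46% of the sum (SD), Snrpe 17.5%, Snrpd3 17.0%, Snrpd2 13.3%, Snrpg 12.3%, Snrpd1 9.93% and Snrpf 1.47 ± 0.22%. Snrpb was the highest and Snrpf the lowest part in all 6 libraries. These parts are uncertain, since 30.0% of the longest coding transcript of Snrpf, 33.6% of Snrpe, 25.1% of Snrpd2 and 21.9% of Snrpg is shared with other genes at 98% identity or more, and 0% of Snrpb, Snrpd1 and Snrpd3.

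**Figure D2:**
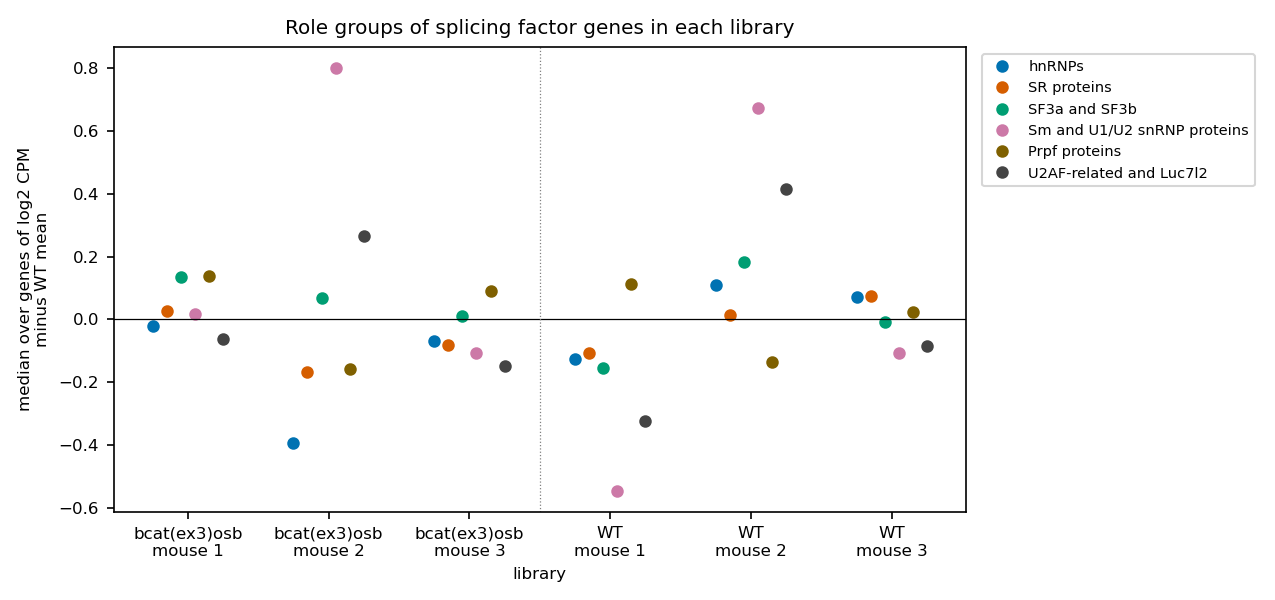
Median deviation from the WT mean in log2 CPM (y axis) of each role group in each mouse (x axis). The Sm and U1/U2 snRNP group is high in mutant mouse 2 (0.80) and WT mouse 2 (0.67), and the hnRNP group is lowest in mutant mouse 2 (-0.39).

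Gene length went with this pattern. In the 9 members with under 1000 bases of gene length, mouse 2 was above the mean of mice 1 and 3 of its group in 9 of 9 genes in both genotypes, by a median of 0.97 log2 units in mutant and 1.02 in WT mice. In the 56 longer members the median was -0.14 in mutant and 0.10 in WT mice. Across the 65 genes, Spearman's rho between this difference and length was -0.587 in mutant and -0.437 in WT mice. These genes share the libraries and are not independent replicates, and 52 of the 65 had the same sign in both. A relation with length was not particular to splicing factor genes. For the deviation from the mean of all 6 libraries, rho over all 12713 genes tested was -0.479 in mutant mouse 2 and -0.396 in WT mouse 2. Over the 65 genes that rho was -0.536 and -0.405. Ribosomal protein and histone genes, which are mostly short too, took a share of 5.21% in mutant mouse 2 and of 4.03% in WT mouse 2, against 2.03 to 2.93% in the other four mice. The part of library make-up in the values of the short genes was not tested.

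**Figure D3:**
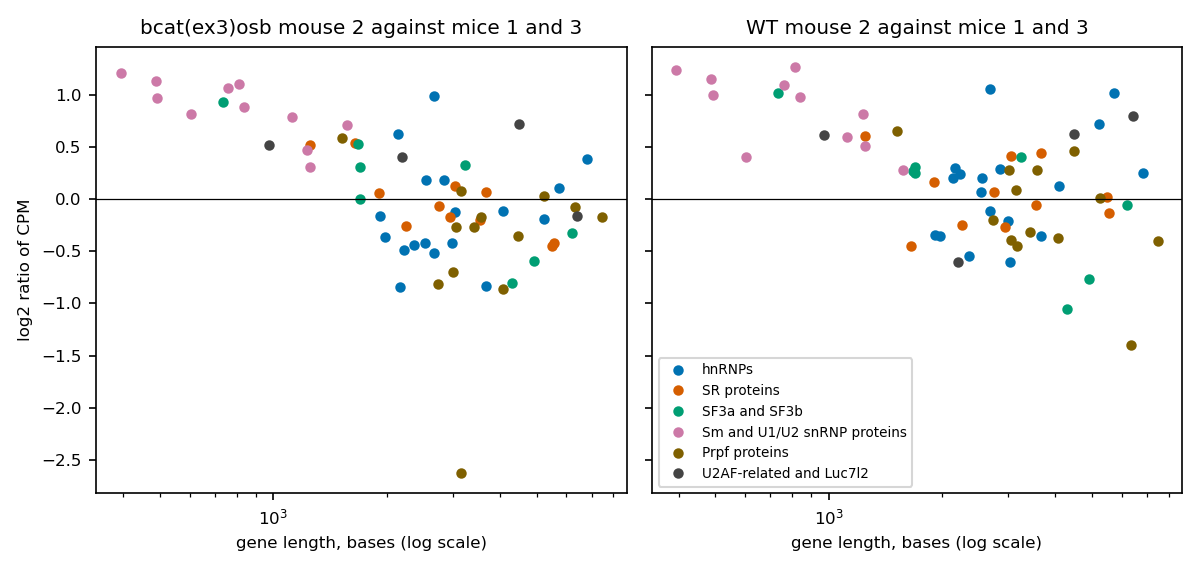
Difference of mouse 2 from the mean of mice 1 and 3 of its own group (log2 CPM, y axis) against gene length in bases (log x axis) for the 65 splicing factor genes in mutant and WT mice. The 9 genes under 1000 bases lie above 0 in both groups.

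Promoter sequence is shown for Snrpe, Snrpg and Snrpc, 3 of the genes that were highest in mouse 2 of both groups, and for Hnrnpc, the gene with the smallest p. The stretches run from 150 bases before to 20 bases from the start used by the promoter windows on GRCm38.p6, 5′ to 3′ on the strand of the gene. For Snrpe and Snrpg this start is the outer end of the RefSeq gene. For Snrpc and Hnrnpc it lies inside the RefSeq gene. The CCGGAAG matches of Snrpe and Snrpc also lie inside the RefSeq gene. Capitals mark CCGGAAG, a core bound by ETS factors, and CCAAT, the box bound by NF-Y, on either strand; in Snrpe the 2 matches on opposite strands overlap. They lie at chr1:133610261-133610430 (minus strand), chr6:86371390-86371559 (plus), chr17:27839937-27840106 (plus) and chr14:52104002-52104171 (minus).
Snrpe: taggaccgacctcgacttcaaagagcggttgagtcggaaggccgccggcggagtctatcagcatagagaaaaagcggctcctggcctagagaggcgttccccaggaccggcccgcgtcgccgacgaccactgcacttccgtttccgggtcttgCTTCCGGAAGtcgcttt
Snrpg: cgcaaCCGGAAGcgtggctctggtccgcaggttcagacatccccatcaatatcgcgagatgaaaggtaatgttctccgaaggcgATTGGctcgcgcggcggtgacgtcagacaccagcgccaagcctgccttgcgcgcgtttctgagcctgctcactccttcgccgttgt
Snrpc: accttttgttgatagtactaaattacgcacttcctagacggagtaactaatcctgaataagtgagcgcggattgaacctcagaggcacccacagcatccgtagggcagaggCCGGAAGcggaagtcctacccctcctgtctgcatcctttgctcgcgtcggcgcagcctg
Hnrnpc: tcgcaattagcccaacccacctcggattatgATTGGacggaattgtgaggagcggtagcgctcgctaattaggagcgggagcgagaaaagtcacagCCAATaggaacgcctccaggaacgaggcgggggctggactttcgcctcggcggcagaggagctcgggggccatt
In windows from 250 bases before to 50 after the start, searched on both strands, CCGGAAG was in 24 of 79 windows of the 58 matched splicing factor genes (30.4%), 17.2% of the windows of genes tested and 8.86% of all windows. It was in 4 of 14 Sm and U1/U2 windows (28.6%) and 4 of 26 hnRNP windows (15.4%). Snrpe, Snrpg and Snrpc all hold CCGGAAG, so the stretches shown do not stand for their group. CCAAT was in 49.4% of the windows of splicing factor genes, 37.7% of those of genes tested and 37.4% of all windows, with 17 of 26 hnRNP windows (65.4%) and 4 of 14 Sm and U1/U2 windows (28.6%). The letters CACGTG and TATAAA were also searched. CACGTG was in 13.9% of the windows of splicing factor genes, 9.9% of those of genes tested and 7.15% of all windows. TATAAA was in 8.86%, 7.05% and 13.6% of the same windows. A match is the presence of these letters and not a bound site.

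Prpf proteins belong chiefly to the tri-snRNP and to the complexes that activate the spliceosome. Of 13 tested genes, the log2 fold change was positive for 8 and negative for 5, its median being 0.023. The groups do not overlap for 3 higher genes and 1 lower gene, 30.8% of the 13, beside 14.5% of all genes tested. Prpf8, the large protein at the heart of the spliceosome, had 169, 161 and 192 CPM in mutant mice, against 187, 141 and 186 CPM in WT mice, with a log2 fold change of 0.023 ± 0.19 (SE) and an interval from -0.42 to 0.47. Prpf4, a tri-snRNP protein, had 95.5, 97.9 and 96.6 CPM in mutant mice, against 81.0, 83.6 and 85.0 CPM in WT mice. These groups are apart with little spread within either, at a log2 fold change of 0.22 ± 0.16 (SE) and an edgeR adjusted p of 0.876. Prpf31, which bridges the tri-snRNP, had 204, 214 and 202 CPM in mutant mice, against 184, 193 and 179 CPM in WT mice, also apart.

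Prpf19, the ubiquitin ligase of the activating complex, had 279, 248 and 245 CPM in mutant mice, against 212, 84.6 and 235 CPM in WT mice. Its log2 fold change of 0.54 ± 0.35 (SE) rests on the low value of WT mouse 2 and was 0.20 without that mouse. Prpf40b, a U1-associated protein gene, had 14.0, 2.64 and 18.7 CPM in mutant mice, against 26.1, 19.6 and 27.5 CPM in WT mice. Its groups are apart, and the log2 fold change of -1.05 ± 0.59 (SE) was the lowest of the 65 genes, with an edgeR adjusted p of 0.818. Without mutant mouse 2 it was -0.58, and with sex as a covariate -0.39.

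**Figure D4:**
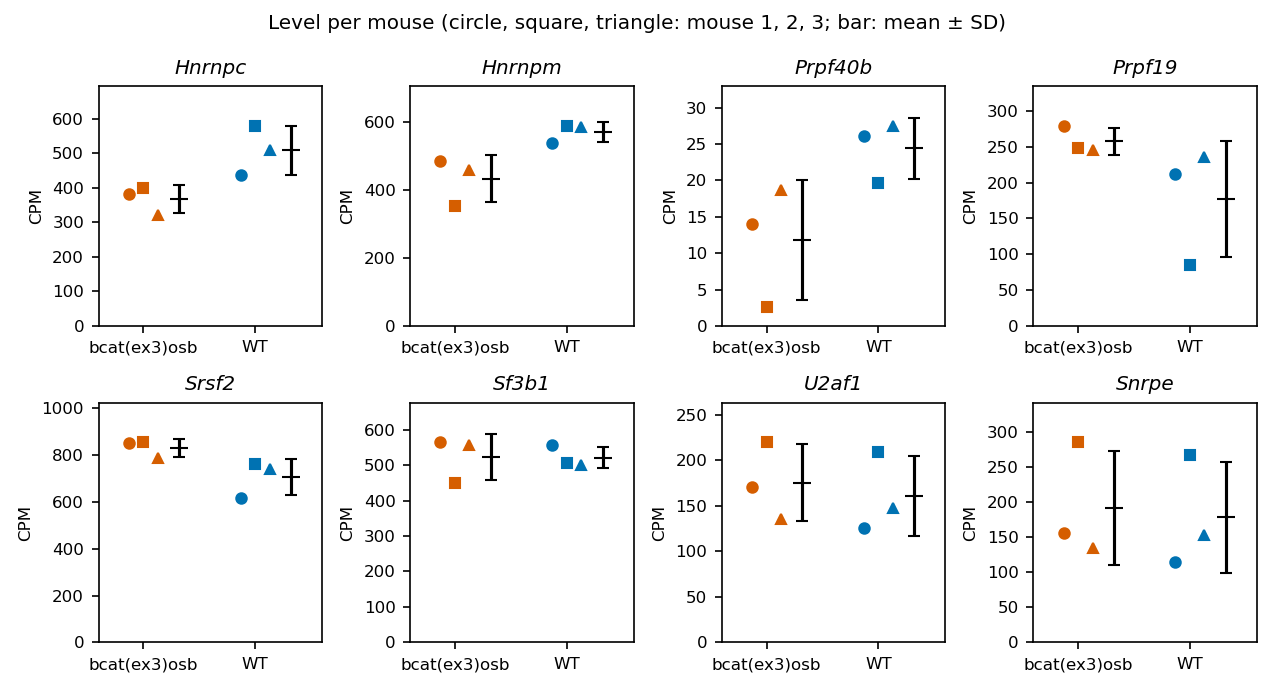
Level in CPM (y axis, from 0) of 8 splicing factor genes in mutant and WT mice, with circle, square and triangle for mice 1, 2 and 3 and a bar for the mean ± SD of each group. Hnrnpc, Hnrnpm and Prpf40b are lower in every mutant mouse than in every WT mouse, Prpf19 and Srsf2 are higher, and Sf3b1, U2af1 and Snrpe overlap.

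Of the other spliceosome and splicing regulator genes, 131 were in the table and 128 tested, and 0 had an edgeR adjusted p under 0.05 in either direction. At an edgeR unadjusted p under 0.05, 0 were higher and 3 lower, together 2.34%. Over all genes tested, 3.42% were higher and 3.13% lower. The 128 genes had a median log2 fold change of 0.023. In 3 higher and 5 lower of them the groups do not overlap (6.25%, beside 14.5% of all genes tested). The 3 lower genes were Srpk3, Clk4 and Tial1. Srpk3, an SR protein kinase gene best known from muscle, had 0, 4 and 0 counts in mutant mice, against 17, 14 and 31 counts in WT mice. It passed the limit on low counts through the WT mice alone, so its place among the lower genes follows partly from that limit. The interval of its log2 fold change ran from -6.45 to -0.83, with an edgeR adjusted p of 0.595. Clk4, a nuclear kinase that phosphorylates SR proteins, had 61.5, 47.3 and 70.7 CPM in mutant mice, against 91.1, 79.2 and 91.8 CPM in WT mice, a log2 fold change of -0.55 ± 0.21 (SE) with an edgeR adjusted p of 0.693. Its relative Clk1 had 135, 102 and 195 CPM in mutant mice, against 197, 216 and 229 CPM in WT mice, a log2 fold change of -0.57 ± 0.25 (SE). For both kinases every mutant mouse was below every WT mouse. Tial1, an RNA-binding protein that aids U1 binding at weak sites, had 34.1, 31.03 and 32.04 CPM in mutant mice, against 38.3, 63.5 and 45.1 CPM in WT mice.

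In the other direction, Smn1, Raly and Srrm1 were among the higher genes with the smallest p-values. However, 0 higher genes of this list had an edgeR unadjusted p under 0.05. Smn1, which encodes the survival motor neuron protein that loads Sm rings onto RNA, had 56.9, 95.7 and 48.9 CPM in mutant mice, against 30.7, 53.6 and 42.2 CPM in WT mice. WT mouse 2 exceeded mutant mouse 3. Raly, an hnRNP relative, had 134, 67.0 and 104 CPM in mutant mice, against 81.9, 47.9 and 79.0 CPM in WT mice. Mutant mouse 2 was below WT mice 1 and 3. Srrm1, an SR-related coactivator, had 242, 298 and 215 CPM in mutant mice, against 156, 243 and 190 CPM in WT mice, and its groups overlap. Its log2 fold change was 0.36 ± 0.23 (SE), with an edgeR adjusted p of 0.858.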

How the data were processed

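RNA was extracted with an AllPrep kit and total RNA libraries were made with a stranded TruSeq kit and a KAPA HiFi final PCR, per the labels' protocols. Reads were handled with bcl2fastq 2.17, STAR 2.5.2b, featureCounts 1.5.0-p3 and build mm10, per the submitters' processing notes. Strand setting, annotation and treatment of multiply mapping reads: not given in the sources used here. Per gene, the authors deposited raw counts, gene lengths and FPKM; each deposited FPKM equals the count scaled by length and library total within 0.005.

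The counts were tested with edgeR 4.0.16 (R 4.3.3, TMM, quasi-likelihood F test, two-sided, genotype only) on all 12713 genes with 10 or more counts in 3 or more libraries, with Benjamini-Hochberg adjustment over all of them and a threshold of 0.05. CPM are counts relative to TMM-scaled library sizes; log2 CPM used a prior count of 1. The procedure was tested on simulated data. Alternatives were DESeq2 1.42.0, limma-voom (limma 3.58.1), RLE scaling, other filters, limma on log2 FPKM plus 1 or 0.1, mouse number as a block, sex, removal of the trend with length, and leaving out each mouse. Nothing in the labels says more of the replicates than that each is a mouse, and p-values measure the spread between these mice. The interval of a share and the floor for a count of 0 hold for counting error alone, because reads were amplified and carry no molecular identifiers.

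The genes, lists and tests were chosen with earlier results of these data known. Named were, from each role, the gene with the highest mean FPKM and up to 4 with the smallest p; the genes tied to human myeloid neoplasms; those at the limit on low counts; and 4 per direction of the other splicing genes; a few of these are left out of the text. Hnrnpa1, Hnrnpu, Hnrnpa0, Hnrnpab, Hnrnpa2b1, Snrpe, Snrpg, Snrpc, Snrpd1, Snrpd2, Sf3b2, Sf3b3 and Zrsr2 were named after their values were seen. Symbols of all 66 genes matched RefSeq (GRCm38.p6). Promoter windows on that build were matched by symbol for 58 of them. Shared sequence was found with blastn 2.17.0 (alignments of at least 100 bases at 98% identity or more) and exon overlaps with GENCODE; 48 of the 66 genes shared no such stretch.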

Additional observations from a re-analysis of the deposited data

How the results depend on the processing

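Under each of the 16 alternatives, 0 of the 65 splicing factor genes passed an adjusted p of 0.05 in either direction. The counts over all genes tested were 103 higher and 69 lower with DESeq2, 5 higher with the mouse number as a block, and 1 higher with the length trend removed; leaving out a mouse gave 0 to 13 lower (13 without mutant mouse 1, 2 without mutant mouse 3). At an unadjusted p under 0.05 the splicing factor genes numbered 2 higher and 3 lower with the block, 1 higher and 2 lower with the length trend removed, 2 lower with limma-voom and 0 lower with the sex covariate; leaving out a mouse gave 0 to 1 higher and 0 to 1 lower. Of all genes tested, 6.95% were then higher and 6.53% lower with the block, 5.84% and 4.77% with the length trend removed, 1.53% and 1.27% with sex, and 3.10% and 4.23% with limma-voom, where edgeR with genotype only gave 3.42% and 3.13%. The other splicing genes numbered 6 higher and 5 lower with the block, 1 higher with the length trend removed, 5 lower with limma on log2(FPKM + 1) and 5 with log2(FPKM + 0.1) (5.03% and 4.81% of all genes), and 1 lower with sex; leaving out a mouse gave 0 to 4 higher and 0 to 3 lower. Splicing factor genes without overlap of the groups numbered 2 higher with the length trend removed (9.76% of all genes). With 1 mouse left out they numbered 4 to 13 higher and 6 to 12 lower of the 65. There were 13 higher without WT mouse 2 (16.7% of all genes) and 7 without mutant mouse 3 (10.7%). There were 12 lower without WT mouse 1 (10.9% of all genes), 11 without WT mouse 2 (17.6%) and 10 without mutant mouse 1 (13.5%). The SR protein median was -0.10 with log2(FPKM + 0.1) and -0.12 to 0.026 with a mouse left out. The Sm and U1/U2 median was 0.23 by edgeR with genotype only. That median was 0.048 with the length trend removed, -0.12 with sex and -0.067 to 0.52 with a mouse left out. The hnRNP median stayed negative, from -0.25 to -0.084 with a mouse left out.

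Of 765 values of the 48 tested genes followed singly, 701 kept their direction and 64 changed sign, all of genes without a call. With sex as a covariate the log2 fold change was -0.24 for U2af1, -0.28 for Sf3b5, -0.051 for Sf3b4, 0.020 for Sf3a1, 0.18 for Sf3b3, 0.024 for Hnrnpa2b1, -0.024 for Snrpb, -0.083 for Snrpd3, -0.091 for Snrpf, -0.12 for Snrpa, -0.40 for Snrpe, -0.44 for Snrpg, -0.22 for Snrpc, -0.22 for Snrpd1 and -0.37 for Snrpd2. With the length trend removed it was -0.014 for U2af1, -0.034 for Sf3b5, 0.00335 for Sf3b3, -0.047 for Snrpd3, -0.21 for Snrpe, -0.051 for Snrpg and -0.10 for Snrpd2. For Sf3b1 it was -0.00107 with limma-voom, -0.079 with log2(FPKM + 1), -0.080 with log2(FPKM + 0.1) and -0.000917 with the block, and for Prpf8 -0.046 and -0.048 on the FPKM scales. Leaving out a mouse gave ranges of -0.054 to 0.10 for Sf3b1, -0.069 to 0.36 for U2af1, -0.21 to 0.064 for U2af2, -0.10 to 0.085 for Prpf8, -0.072 to 0.46 for Luc7l2, -0.46 to 0.060 for Zrsr1, -0.20 to 0.61 for Sf3b5, -0.15 to 0.12 for Sf3b2, -0.36 to 0.14 for Sf3b3, -0.32 to 0.066 for Sf3a1, -0.37 to 0.017 for Hnrnpu, -0.056 to 0.48 for Snrpb, -0.034 to 0.45 for Snrpd3, -0.027 to 0.99 for Snrpf, -0.064 to 0.36 for Snrpa, -0.29 to 0.52 for Snrpe, -0.21 to 0.85 for Snrpg, -0.10 to 0.81 for Snrpc, -0.15 to 0.62 for Snrpd1 and -0.26 to 0.73 for Snrpd2. The cause of these changes was not tested.

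Mice with the same number did not deviate together in every pair (correlations of 0.101, 0.34 and 0.0745 for mice 1, 2 and 3), and mutant mice 1 and 3 did not correlate best with the WT mouse of their own number, so the numbers were not taken as a pairing. By their counts 2 of 3 mutant mice and 0 of 3 WT mice were male, so sex and genotype are partly confounded. The highest values of the Sm and U1/U2 genes are those of mutant mouse 2 and WT mouse 2. With 3 mice in a group the median half-width of an unadjusted 95% interval was 0.53 log2 units, and the adjusted test needs larger differences.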
